A study of Bos taurus with 12 samples.

Results

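The adhesion molecules that white blood cells use to leave the bloodstream were examined in the bovine corpus luteum in the first hours after PGF2α, the hormone that starts its regression. The set was chosen by name and comprised 6 genes. *SELE* (E-selectin) and *SELP* (P-selectin) are the vessel selectins, and *SELPLG* (PSGL-1) is their ligand on leukocytes. *ICAM1*, *ICAM2* and *VCAM1* are immunoglobulin family molecules of the vessel wall that bind leukocyte integrins. A row of that name was found for 5 of the 6 genes among 27270 genes. All 5 passed the minimum of 10 counts in 4 or more of the 12 libraries, which left 14481 genes for testing. *ICAM2* had no row of that name and was not analysed here.

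Leukocytes in flowing blood first tether to selectins on activated endothelium and roll. They stop when their integrins bind immunoglobulin family molecules, and then cross between the endothelial cells. P-selectin is stored in granules of endothelial cells and platelets and can reach the surface without new transcription, whereas E-selectin must be newly transcribed. *ICAM1* and *VCAM1*, like *SELE*, are classic targets of cytokine and NF-kB signaling. The corpus luteum is one of the most densely vascularized tissues of the body, and neutrophils, macrophages and lymphocytes are known to enter it as it regresses.

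Cows of mixed breed were synchronized to the mid-luteal phase (Day 10), and total RNA of the whole corpus luteum was sequenced from 12 animals, 1 library per cow. After an intramuscular luteolytic injection of PGF2α, the corpus luteum was taken by ovariectomy at 4 h from 4 cows (4 h: cows 4H-4291, 4H-5341, 4H-6455 and 4H-6456), and at 12 h from another 4 (12 h: cows 12H-5266, 12H-6314, 12H-7382 and 12H-7475). The 4 control cows received saline (cows C-4285, C-6464, C-7367 and C-7514), and the labels give no collection time for them. Cows carry the numbers of their labels, and nothing in the labels gives their age. Because the whole gland was sequenced, fewer cells of a type and less RNA per cell cannot be told apart at any gene.

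Total expected counts per library were 15527149 to 22352909 at 4 h, 12471493 to 17880450 at 12 h and 10263310 to 22600213 in control. The mean effective transcript length weighted by TPM (a level per unit of transcript length, scaled to the same total in each library) was 1523 to 1647 bases at 4 h, 1314 to 1478 bases at 12 h and 1529 to 1628 bases in control, so the 12 h libraries did not overlap the others. Cow 12H-6314 had the longest value of the 12 h group and cow 4H-6455 the shortest of the 4 h group, and calls are also given without this pair where they change. Mitochondrially encoded genes took 7.78 to 10.2% of the counts at 4 h, 7.22 to 14.1% at 12 h and 6.77 to 10.0% in control. The 12 h cows other than 12H-6314 had 12.4 to 14.1%, above all libraries of the other groups, and 12H-6314 had the 7.22%. The mean chi-square per gene between libraries was 68.1 to 125.3 for 12H-6314 against the other 12 h cows and 22.4 to 26.4 among those 3. Counts were compared after TMM scaling with edgeR, under which the median log2 fold change of all genes tested was -0.03 at 4 h and 0.01 at 12 h against control. On the log2(TPM + 1) scale the 12 h median was -0.25, so a TPM ratio at 12 h is to be read relative to that shift. As a check of the tissue, 5 luteal cell markers summed to 12338 to 15539 TPM at 4 h, 2750 to 5480 TPM at 12 h and 15493 to 23557 TPM in control, and all 12 endothelial markers averaged at least 1 TPM in each group.

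*VCAM1* was the most abundant of the adhesion molecules, followed by *ICAM1*, and *SELE* was the least abundant in every group. On the TPM scale *VCAM1* averaged 76.2 ± 20.7 at 4 h, 59.9 ± 15.5 at 12 h and 57.9 ± 19.1 in control (SD, n = 4 each). *ICAM1* averaged 37.2 ± 4.5 TPM at 4 h, 27.0 ± 9.47 TPM at 12 h and 28.1 ± 5.0 TPM in control. *SELP* came next at 4 h with 8.78 ± 2.97 TPM, and *SELPLG* came next at 12 h with 13.1 ± 3.1 TPM and in control with 9.19 ± 3.73 TPM. The values of *SELP* and *SELPLG* overlapped in every group, so their order was not resolved. Every other pair of neighbours in the order was separated without overlap between cows. *SELE* averaged 1.35 ± 0.664 TPM at 4 h, 0.655 ± 0.540 TPM at 12 h and 0.778 ± 0.447 TPM in control.

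**Figure D1:**
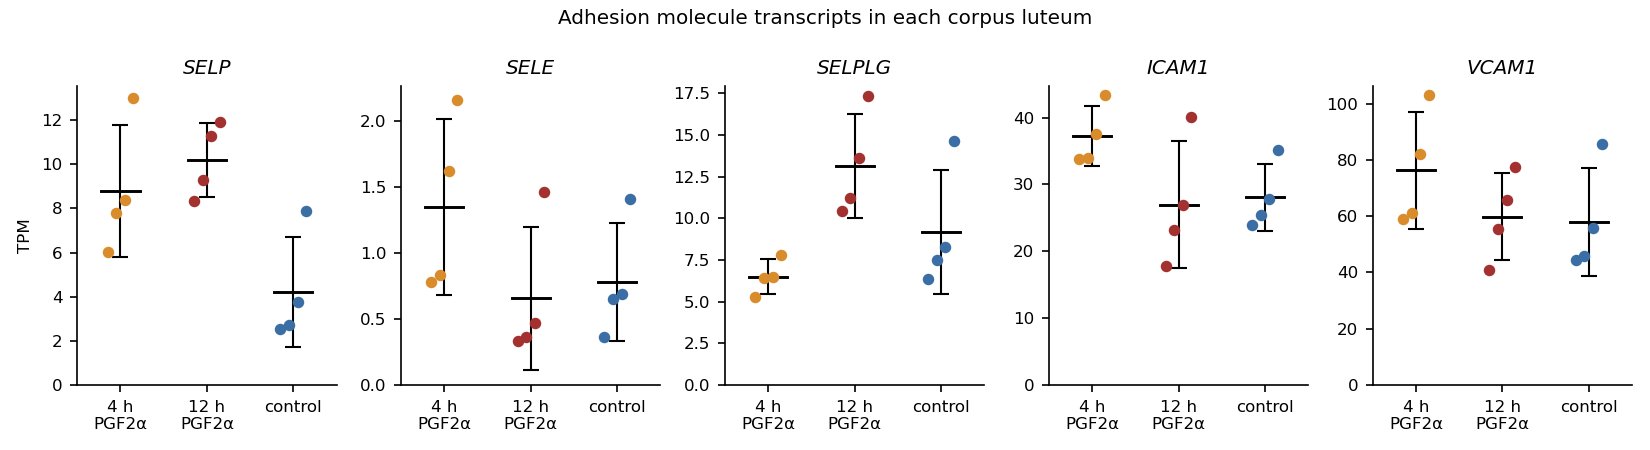
TPM of the 5 adhesion molecules in each cow at 4 h (left), 12 h (middle) and in control (right); points are cows, the bar is the group mean and the whiskers are 1 SD (n = 4). All 12 h cows lie above all control cows for *SELP*, and above all 4 h cows for *SELPLG*; the other groups overlap.

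*SELP* transcripts were higher after PGF2α at both times, although the 4 h call depended on single cows. The gene lies on chromosome 16 at 37241577 to 37284986 of the build ARS-UCD1.2 and is listed with 3 transcripts. *SELP* had 7.78, 6.01, 8.36 and 12.98 TPM at 4 h, 9.28, 11.28, 8.35 and 11.93 TPM at 12 h, and 7.87, 3.77, 2.71 and 2.54 TPM in control (cows in the order given above). All 4 cows at 12 h were above the highest control, cow C-4285. At 4 h 2 of 4 cows were above it, and all 4 were above the other 3 controls. The ratio of mean TPM was 2.08 at 4 h (exact two-sided permutation p = 0.0857) and 2.42 at 12 h (exact p = 0.0286, the smallest that 4 cows against 4 can give). Over the 15 such tests of the 5 genes the 12 h value was 0.214 after Benjamini-Hochberg adjustment. In the edgeR fit across all genes *SELP* rose by 1.64 log2 units at 12 h (SE 0.34, adjusted p = 0.00169) and by 1.12 at 4 h (SE 0.33, adjusted p = 0.0426). The difference between the times, 0.51 (SE 0.32), did not pass the test (edgeR adjusted p = 0.209).

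The 12 h increase of *SELP* passed in 23 of 23 alternatives, with adjusted p up to 0.00664, and was 1.64 (edgeR adjusted p = 0.00539) without cows 4H-6455 and 12H-6314 and 1.67 (0.00145) without the mitochondrially encoded genes, whose share was high in the other 3 cows at 12 h. The 4 h call passed in 12 of 23 alternatives, and in 3 of the 12 fits that left out a single cow. It was lost without any of control cows C-6464, C-7367 and C-7514, 4 h cows 4H-4291, 4H-6455 and 4H-6456, and 12 h cows 12H-5266, 12H-7382 and 12H-7475. Its value stayed between 0.90 and 1.57 in these fits, with the highest value without control cow C-4285.

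*SELE*, the selectin made anew by activated endothelium, was low in every group and did not pass the test in any of the 3 comparisons. It lies on chromosome 16 at 37372237 to 37384911. Per library *SELE* had 25 to 79 counts at 4 h, 10 to 37 at 12 h and 12 to 46 in control. These were 0.83, 2.16, 0.78 and 1.62 TPM at 4 h, 0.47, 0.36, 0.33 and 1.46 TPM at 12 h, and 0.69, 0.65, 1.41 and 0.36 TPM in control. The groups overlapped in all 3 comparisons, and the single high 12 h value belonged to cow 12H-7475. The edgeR log2 fold change was 0.81 (SE 0.56, adjusted p = 0.369) at 4 h, 0.04 (SE 0.59, adjusted p = 0.959) at 12 h and -0.77 (SE 0.57, adjusted p = 0.287) at 12 h against 4 h. The 12 h value against control was -0.12 on the log2(TPM + 1) scale. Without cow 12H-7475 the 12 h against 4 h value was -1.54 (edgeR adjusted p = 0.0357), so that call rested on whether 1 library was kept.

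The leukocyte ligand *SELPLG* was higher at 12 h than at 4 h and than in control. *SELPLG*, which carries the sugar and sulfate groups that P-selectin binds, lies on chromosome 17 at 64298475 to 64314718. It had 5.26, 6.41, 6.46 and 7.82 TPM at 4 h, 11.24, 10.41, 13.59 and 17.33 TPM at 12 h, and 7.5, 14.65, 6.33 and 8.28 TPM in control. All 4 cows at 12 h were above all 4 cows at 4 h, while the controls overlapped both groups, with cow C-6464 the highest of them. The 12 h mean was 2.03 times the 4 h mean (exact two-sided permutation p = 0.0286; adjusted over 15 tests, 0.214), and 1.43 times the control mean (exact p = 0.171). The 4 h mean was 0.706 of the control mean (exact p = 0.2).

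By edgeR, *SELPLG* was higher at 12 h than at 4 h by 1.31 log2 units (SE 0.27, adjusted p = 0.00199) and than in control by 0.83 (SE 0.27, adjusted p = 0.0222). Its 4 h value against control of -0.48 (SE 0.27) did not pass (edgeR adjusted p = 0.263). The difference between the times passed in 23 of 23 alternatives, and was 1.47 (edgeR adjusted p = 0.00319) without cows 4H-6455 and 12H-6314 and 1.33 (0.00185) without the mitochondrially encoded genes. The 12 h call against control passed in 17 of 23 alternatives. It was lost on log2(TPM + 1) and log2(TPM + 0.1) with limma (adjusted p = 0.0778 and 0.0760) and in the edgeR fits without control cow C-7367 (adjusted p = 0.0639), control cow C-7514 (0.0523), 12 h cow 12H-7382 (0.0556) or 12 h cow 12H-7475 (0.0889).

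*ICAM1* and *VCAM1*, the endothelial counter-receptors of the leukocyte integrins, did not pass the test in any of the 3 comparisons. *ICAM1*, the ligand of the ITGB2 integrins, lies on chromosome 7 at 14813729 to 14824411. It had 34.03, 37.61, 33.79 and 43.44 TPM at 4 h, 17.8, 40.05, 26.87 and 23.22 TPM at 12 h, and 27.77, 35.23, 23.96 and 25.48 TPM in control. At 4 h 2 cows were above the highest control and the other 2 were above 3 of the 4 controls. At 12 h 2 cows were below the lowest control, 1 was within the control range and cow 12H-6314 was above it. The edgeR log2 fold change was 0.43 (SE 0.17, unadjusted p = 0.0266, adjusted p = 0.114) at 4 h, 0.22 (SE 0.17, adjusted p = 0.308) at 12 h and -0.21 (SE 0.17, adjusted p = 0.329) at 12 h against 4 h. On the log2(TPM + 1) scale the 12 h value was -0.10, which is 0.15 above the median of all genes on that scale. The gene ends 396 bases before *ICAM4*, which did not reach the count minimum.

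*VCAM1*, the ligand of integrins that contain ITGA4 or ITGA9, lies on chromosome 3 at 42553488 to 42576599. It had 60.98, 103.05, 58.99 and 81.96 TPM at 4 h, 41.01, 77.39, 55.27 and 65.74 TPM at 12 h, and 45.97, 85.53, 55.78 and 44.35 TPM in control. The groups overlapped in all 3 comparisons. Its edgeR log2 fold change was 0.42 (SE 0.24, adjusted p = 0.273) at 4 h, 0.33 (SE 0.24, adjusted p = 0.273) at 12 h and -0.09 (SE 0.24, adjusted p = 0.790) at 12 h against 4 h. Control cow C-6464 had the highest *ICAM1*, *VCAM1* and *SELPLG* of its group. Without it *ICAM1* at 4 h (0.59, edgeR adjusted p = 0.0452) and *VCAM1* at 12 h (0.63, edgeR adjusted p = 0.0291) passed the test.

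Against control, 1 of the 5 genes rose and 0 fell at 4 h, when 8.65% of all genes tested rose and 5.59% fell. At 12 h 2 of 5 rose and 0 fell, beside 23.6% and 25.3% of all genes, and at 12 h against 4 h 1 of 5 rose and 0 fell, beside 22.5% and 24.3%. Before adjustment 2, 2 and 1 of the 5 genes were higher and 0 lower with p under 0.05 in those comparisons, and DESeq2 called 1, 2 and 1 higher and 0 lower. The balance of all genes at 12 h depended on the scale, with 1509 higher and 5631 lower on log2(TPM + 1). Both comparisons with control use the same 4 control cows. The shares of all genes given here also apply to the edgeR counts of the marker and gene lists below, taken over all 12 cows.

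**Figure D2:**
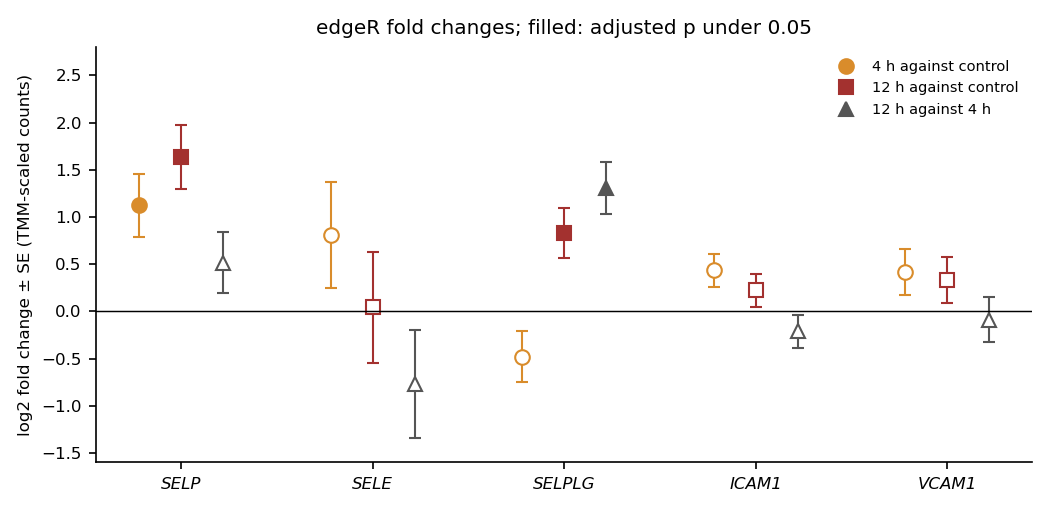
edgeR log2 fold change with its SE for the 5 adhesion molecules at 4 h against control (circles), 12 h against control (squares) and 12 h against 4 h (triangles); filled symbols have an adjusted p under 0.05. *SELP* is filled at both times against control and *SELPLG* at 12 h against both other groups.

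*SELP* was also set against the endothelial markers of the same cow. Its log2 CPM minus the mean log2 CPM of the 12 endothelial markers averaged -2.62 ± 0.33 at 4 h, -2.15 ± 0.45 at 12 h and -3.48 ± 0.55 in control (SD, n = 4 each). At 12 h the values of -2.04, -2.71, -2.24 and -1.62 were all above the controls, which had -2.87, -3.18, -3.82 and -4.06. The difference was 1.33 log2 units at 12 h (exact two-sided permutation p = 0.0286; adjusted over 15 tests, 0.429) and 0.86 at 4 h (exact p = 0.0571). The marker mean itself was 0.31 log2 units above control at 4 h and 0.39 at 12 h, with overlapping cows (exact p = 0.171 and 0.114). Against *PECAM1* and *CDH5* alone the 4 h difference of *SELP* was 0.36, and *PECAM1* itself rose at 4 h.

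Relative to the same markers, *SELE*, *ICAM1* and *VCAM1* overlapped between groups in every comparison, with differences against control of 0.49, 0.14 and 0.13 log2 units at 4 h and -0.44, -0.19 and -0.02 at 12 h. *SELPLG* was set against the leukocyte markers *PTPRC*, *CD53*, *CORO1A* and *LAPTM5*, whose mean was 0.81 log2 units higher at 12 h than at 4 h without overlap (exact two-sided permutation p = 0.0286). Relative to that mean *SELPLG* differed by 0.46 at 12 h against 4 h (exact p = 0.114), 0.38 at 12 h against control (exact p = 0.2) and -0.08 at 4 h against control (exact p = 0.714). The groups overlapped in all 3 comparisons. Of the 4 leukocyte markers, *LAPTM5* rose at 12 h (1.03, edgeR adjusted p = 0.00479), while *PTPRC* (CD45) was at -0.86 (edgeR adjusted p = 0.0656). At 12 h against control 1 of the 4 fell by DESeq2 and 1 by limma on log2(TPM + 1). By edgeR 0 fell, also without cows 4H-6455 and 12H-6314. At 12 h against 4 h 3 of the 4 rose and 0 fell by edgeR. Against *PTPRC* alone the difference of *SELPLG* was 1.6 at 12 h and 0.22 at 4 h against control.

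**Figure D3:**
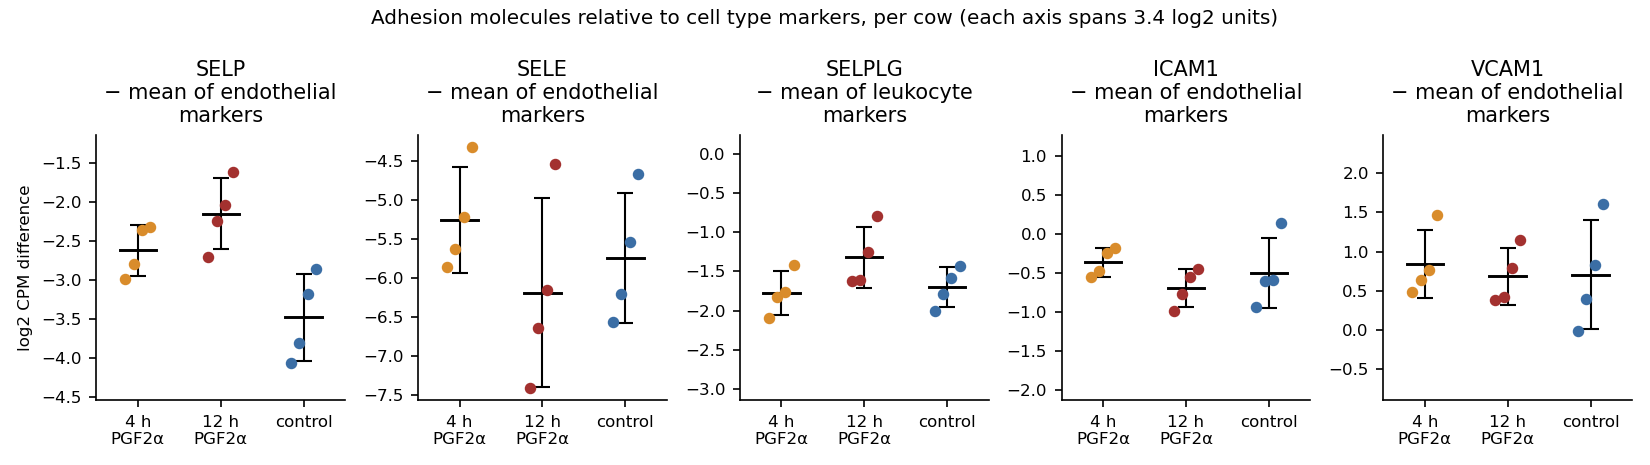
Log2 CPM of each adhesion molecule minus the mean log2 CPM of 12 endothelial markers, or of 4 leukocyte markers for *SELPLG*, in each cow at 4 h (left), 12 h (middle) and in control (right); bars are means and whiskers 1 SD (n = 4). The 12 h cows lie above the control cows for *SELP*, with a difference of 1.33, and overlap them for the other genes.

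Markers of macrophages and neutrophils were higher at 12 h, beside the changes of *SELP* and *SELPLG*. Of 11 macrophage and monocyte markers 8 rose and 0 fell at 12 h, and their summed level was 272 to 525 TPM at 4 h, 556 to 871 TPM at 12 h and 219 to 665 TPM in control. Of 8 neutrophil markers tested 7 rose and 0 fell at 12 h, and the 9 neutrophil markers summed to 43.9 to 149 TPM at 4 h, 105 to 278 TPM at 12 h and 24.6 to 40.6 TPM in control. Of these 9, 4 averaged under 1 TPM at 4 h and at 12 h, and 3 in control. DESeq2 gave 8 and 7 rises and 0 falls at 12 h for the macrophage and neutrophil lists, and before adjustment 0 were lower with p under 0.05. On log2(TPM + 1) there were 7 and 5 rises and 0 falls. Without cows 4H-6455 and 12H-6314 there were 6 and 6 rises. Among them *S100A9*, a calcium-binding protein abundant in neutrophils, rose by 2.73 at 4 h and 3.21 at 12 h, and *CD14*, the monocyte coreceptor for endotoxin, rose by 0.90 and 1.52, all log2 fold changes with edgeR adjusted p of 0.0236 or less. At 4 h they were the only calls of their lists by edgeR, 1 of 8 neutrophil and 1 of 11 macrophage and monocyte markers. The list medians at 4 h were 0.59 and -0.11. The 4 leukocyte markers summed to 109 to 148 TPM at 4 h, 186 to 267 TPM at 12 h and 103 to 293 TPM in control. Of 10 T and NK lymphocyte markers 1 fell at 4 h (5 by DESeq2) and 2 rose at 12 h. The list median was -1.10 at 4 h and -0.42 at 12 h. At 4 h 8 were lower by edgeR with p under 0.05 before adjustment. Of 3 B lymphocyte markers 2 rose at 12 h by edgeR, 1 by DESeq2 and 0 by limma on log2(TPM + 1). The 4 B lymphocyte markers summed to 1.97 to 33.85 TPM at 12 h. They summed to 1.74 to 2.98 TPM at 4 h and 1.92 to 4.97 TPM in control. At 12 h the 6 markers of pericytes and smooth muscle gave 1 call in each direction, the 6 of fibroblasts gave 2 rises, and all 5 of luteal cells fell. Pericytes and smooth muscle gave 0 rises and 1 fall, and fibroblasts 0 rises, without cows 4H-6455 and 12H-6314. Their part in the *SELPLG* values was not tested.

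Platelets are the other cell type that stores P-selectin. Of 6 platelet markers *PF4* and *PPBP* had no row of that name, *GP9* was listed at 0 in every cow, and *GP1BA* was listed at 0 at 12 h and in control and reached 0.04 TPM at 4 h. The tested markers *ITGA2B*, the platelet integrin subunit, and *TREML1* both rose at 12 h, by 0.92 and 2.70 (edgeR adjusted p = 0.000585 and 0.000981). The summed level of the 4 present markers was 2.91 to 6.20 TPM at 4 h, 6.33 to 10.1 TPM at 12 h and 3.12 to 4.19 TPM in control. Their part in the *SELP* values was not tested. Of 12 endothelial markers 2 rose and 1 fell at 4 h (3 and 1 without cows 4H-6455 and 12H-6314), and 4 rose and 1 fell at 12 h (2 and 1 without them, and 1 and 1 on log2(TPM + 1)). *KDR*, the main VEGF receptor, fell by 1.14 on the log2 scale at 12 h (edgeR adjusted p = 6.21e-05), and *PLVAP*, a protein of fenestrated endothelium, rose by 1.84 (edgeR adjusted p = 0.0128).

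Leukocyte integrins bind *ICAM1* and *VCAM1* at the step that follows rolling. Of 7 leukocyte integrin genes tested, 0 rose and 1 fell at 4 h, and 0 rose and 2 fell at 12 h, with a list median of -0.39 at 4 h and -0.24 at 12 h beside -0.03 and 0.01 over all genes. Without cows 4H-6455 and 12H-6314 there were 1 rise and 1 fall at 4 h (median -0.19). Before adjustment 0 were higher by edgeR at either time with p under 0.05, and 1 by DESeq2 at 4 h. After adjustment DESeq2 gave 0 rises and 2 falls at both times. On log2(TPM + 1) there were 0 rises and 3 falls at 12 h. *ITGA4*, the alpha subunit of the main *VCAM1* receptor, had 3.24 to 18.7 TPM at 4 h, 1.56 to 3.5 TPM at 12 h and 11.2 to 16.9 TPM in control. The 12 h cows were below all controls, and the log2 fold change was -2.39 (SE 0.41, edgeR adjusted p = 0.000489). *ITGA9*, which also pairs with *ITGB1* to bind *VCAM1*, fell at 12 h (-1.75, SE 0.21, edgeR adjusted p = 4.32e-05). *ITGB7*, the partner of *ITGA4* on lymphocytes homing to gut, fell at 4 h (-1.04, SE 0.27, edgeR adjusted p = 0.0229). The *ICAM1* receptor subunits *ITGAL* (-0.58, adjusted p = 0.105) and *ITGAM* (0.76, adjusted p = 0.148) did not pass at 12 h by edgeR.

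Among 9 tested genes in the list of selectins and other selectin ligands, 2 rose and 2 fell at 4 h, and 3 rose and 1 fell at 12 h (medians -0.39 and -0.21). *CD24*, a small glycoprotein that can carry P-selectin ligands in mice, had 6.76 to 15.2 TPM at 4 h, 91.1 to 116.7 TPM at 12 h and 0.37 to 0.5 TPM in control. The 3 groups did not overlap, and its log2 fold change was 4.43 at 4 h and 8.19 at 12 h (edgeR adjusted p = 8.5e-06 and 6.32e-08). *CD24* is made by many cell types. *MADCAM1*, a mucosal vessel ligand of lymphocyte integrins, had 1.16 to 1.46 TPM at 4 h, 0.29 to 2.38 TPM at 12 h and 0.1 to 0.32 TPM in control. It was low in all cows and rose at both times (log2 fold changes 2.68 and 2.55, edgeR adjusted p = 0.0168 and 0.00678). *CD44*, a hyaluronan receptor whose glycoforms bind selectins, rose at 12 h (1.11, edgeR adjusted p = 0.00793). *CD34*, an endothelial sialomucin, fell at 4 h (-0.89, edgeR adjusted p = 0.00529), and its relative *PODXL* fell at 12 h (-1.40, edgeR adjusted p = 0.00139).

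Of 13 tested enzymes that build the sugars and sulfated tyrosines of selectin ligands, 3 rose and 4 fell at 12 h (median 0.09). At 4 h 0 were called by edgeR or by DESeq2, and 0 had p under 0.05 before adjustment. The smallest p at 4 h belonged to *C1GALT1* (-0.28) and its chaperone *C1GALT1C1* (-0.20), with edgeR adjusted p of 0.182 and 0.205. *FUT4*, a fucosyltransferase of the sialyl Lewis x epitope, fell by 0.96, *C1GALT1*, which starts core 1 O-glycans, fell by 0.80, and *B4GALT1*, a galactosyltransferase, fell by 0.71 on the log2 scale at 12 h (edgeR adjusted p = 0.0014, 0.000486 and 0.00204). *TPST2*, one of the enzymes that sulfate the tyrosines of PSGL-1, rose by 0.55 at 12 h (edgeR adjusted p = 0.000552).

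Other immunoglobulin family adhesion molecules gave 2 rises and 1 fall among 14 tested at 4 h, and 5 rises and 1 fall at 12 h (medians 0.18 and 0.26). The 12 h balance depended on the scale, with 1 rise and 3 falls on log2(TPM + 1). It was 3 rises and 3 falls without cows 4H-6455 and 12H-6314. *PECAM1*, a junctional molecule of endothelium and leukocytes, had 85.2 to 112.8 TPM at 4 h, 35.9 to 79.5 TPM at 12 h and 39.4 to 66.1 TPM in control, and rose at 4 h (0.96, SE 0.20, edgeR adjusted p = 0.00837) but was at 0.08 at 12 h (adjusted p = 0.760). *F11R* (JAM-A) rose at both times by 0.62 and 0.93, and *JAM2* fell by 0.59 on the log2 scale at 4 h and was 0.47 higher at 12 h (edgeR adjusted p of 0.0138 or less for these 4 values). *THY1*, which binds leukocyte integrins, and *BSG* (basigin) rose at 12 h by 0.94 and 0.41 (edgeR adjusted p = 0.00574 and 0.0389).

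Of 18 genes of docking and transmigration, 2 rose and 0 fell at 4 h, and 4 rose and 2 fell at 12 h (medians 0.21 and 0.12). Over all genes tested 8.65% rose and 5.59% fell at 4 h, and 23.6% and 25.3% at 12 h. DESeq2 gave 3 and 0 at 4 h, where before adjustment 4 were higher and 0 lower with p under 0.05. Without cows 4H-6455 and 12H-6314 there were 4 and 0 at 4 h, and 5 and 5 at 12 h. *PVR*, a nectin-like receptor of endothelial junctions, and *CD9*, a tetraspanin of endothelial adhesion platforms, rose at 4 h (0.70 and 0.77, edgeR adjusted p = 0.0125 and 0.0285). *RHOG*, a small GTPase that acts below engaged ICAM1, rose by 0.77, *CD9* rose by 1.12, and *CD99*, used at endothelial junctions, rose by 0.95 at 12 h (edgeR adjusted p = 2.79e-05, 0.000891 and 0.00105). *EZR* (ezrin), which links adhesion molecules such as ICAM1 and VCAM1 to actin, had 220 to 362 TPM at 4 h, 90.9 to 112.2 TPM at 12 h and 299 to 477 TPM in control. All 12 h values were below all others (log2 fold change -1.70 against control, SE 0.21, edgeR adjusted p = 5.32e-05).

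Of 10 genes of the endothelial granules that hold P-selectin, 0 were called at 4 h, and 4 rose and 3 fell at 12 h (medians 0.38 and 0.53). At 4 h 2 were higher and 0 lower by edgeR with p under 0.05 before adjustment, and DESeq2 gave 2 rises after adjustment. Without cows 4H-6455 and 12H-6314 there were 1 rise and 0 falls at 4 h, and 3 and 2 at 12 h. At 12 h DESeq2 gave 6 rises and 3 falls, and edgeR with an offset for effective transcript length gave 5 and 1. *RAB3D*, a GTPase of granule release, was at 0.43 at 4 h (edgeR adjusted p = 0.0923). *CD63*, a membrane protein of these granules and of lysosomes, *PLAT*, the tissue plasminogen activator, and *EDN1*, endothelin-1, rose at 12 h by 0.67, 1.41 and 3.37 (edgeR adjusted p = 0.000146, 0.000814 and 0.0011). *EDN1* was 4.73 to 8.9 TPM at 4 h, 3.59 to 43.6 TPM at 12 h and 1.09 to 2.89 TPM in control, so the 12 h group was wide. *VWF*, von Willebrand factor and the main cargo of the granules, was at 0.72 at 4 h (adjusted p = 0.224) and rose at 12 h (1.03, edgeR adjusted p = 0.0371). *SYTL4*, another gene of this list, fell by 0.69 on the log2 scale at 12 h (edgeR adjusted p = 0.000644).

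Upstream of transcription of *SELE*, *ICAM1* and *VCAM1*, the NF-kB list gave 8 rises and 1 fall among 25 tested genes at 4 h, and 9 and 1 at 12 h (medians 0.19 and 0.29), with 5 and 2 at 12 h on log2(TPM + 1). There were 6 and 1 at 4 h without cows 4H-6455 and 12H-6314. *IL1R1*, the interleukin-1 receptor, had 17.9 to 27.1 TPM at 4 h, 8.98 to 14.3 TPM at 12 h and 4.91 to 9.77 TPM in control. *TNFRSF1B*, a TNF receptor, had 35.9 to 59.5 TPM at 4 h, 32.8 to 40.0 TPM at 12 h and 15.8 to 24.2 TPM in control. Both rose at 4 h (1.90 and 1.39, edgeR adjusted p = 0.000212 and 0.000419) and at 12 h (1.21 and 1.25, edgeR adjusted p = 0.000676 and 0.000151). The kinase genes *IKBKB* and *RIPK1* rose at 12 h by 0.69 and 0.40 (edgeR adjusted p = 0.0001 and 0.00105).

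Of 9 genes of shear stress and endothelial quiescence, 4 rose and 1 fell at each time (medians 0.38 and 0.32). On log2(TPM + 1) there were 2 and 1 at 4 h, and 2 and 2 at 12 h, and without cows 4H-6455 and 12H-6314 there were 3 and 1 at 12 h. *KLF2* and *KLF4*, flow-induced transcription factors known to restrain endothelial adhesion molecules, were at -0.39 and 0.38 at 4 h (adjusted p = 0.324 and 0.282) and rose at 12 h by 1.27 and 0.94 (edgeR adjusted p = 0.00118 and 0.00392). *NOS3*, the endothelial nitric oxide synthase, rose at both times (1.17 and 0.81), and *ANGPT1*, a ligand of the endothelial receptor TEK, fell at both (-1.12 and -1.51), with edgeR adjusted p of 0.0132 or less. *THBD*, thrombomodulin, rose at 4 h (1.92, edgeR adjusted p = 0.00837) and was at -0.24 at 12 h (adjusted p = 0.649).

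Of 7 genes for the shedding of adhesion molecules from the cell surface, 0 were called at 4 h, and 2 rose and 2 fell at 12 h (medians 0.25 and 0.19). At 4 h DESeq2 gave 2 rises, and before adjustment 2 were higher and 0 lower with p under 0.05. Those were *MMP14* (0.56) and the sheddase *ADAM8* (0.66), with edgeR adjusted p of 0.0508 and 0.0526. Without cows 4H-6455 and 12H-6314 there were 2 rises and 0 falls at 4 h, and 3 and 2 at 12 h. *ADAM17*, a sheddase of VCAM1, had 36.9 to 79.1 TPM at 4 h, 20.5 to 25.5 TPM at 12 h and 45.1 to 63.7 TPM in control. Its 12 h values were below all others (log2 fold change -0.93 against control, SE 0.18, edgeR adjusted p = 0.00107). *RHBDF2*, which brings ADAM17 to the surface, fell as well (-1.63, edgeR adjusted p = 0.000106), while the membrane protease *MMP14* and the secreted *MMP9* rose (1.65 and 0.93, edgeR adjusted p = 2.59e-05 and 0.0342).

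The list medians at 12 h moved with the scale. On log2(TPM + 1) they were -0.25 for the carbohydrate enzymes, -0.08 for the immunoglobulin family, -0.20 for docking and transmigration, -0.03 for shear stress and quiescence and -0.14 for shedding, beside -0.25 for all genes. Those of the granules (0.21) and the NF-kB list (0.02) stayed above 0 on that scale, and those of the integrins (-0.38) and selectin ligands (-0.48) stayed below it. Relative to the -0.25 of all genes, the immunoglobulin, docking, shear stress, shedding, granule and NF-kB medians were above. The integrin and selectin ligand medians were below. Relative to all genes on TMM-scaled counts, these lists lay on the same sides.

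**Figure D4:**
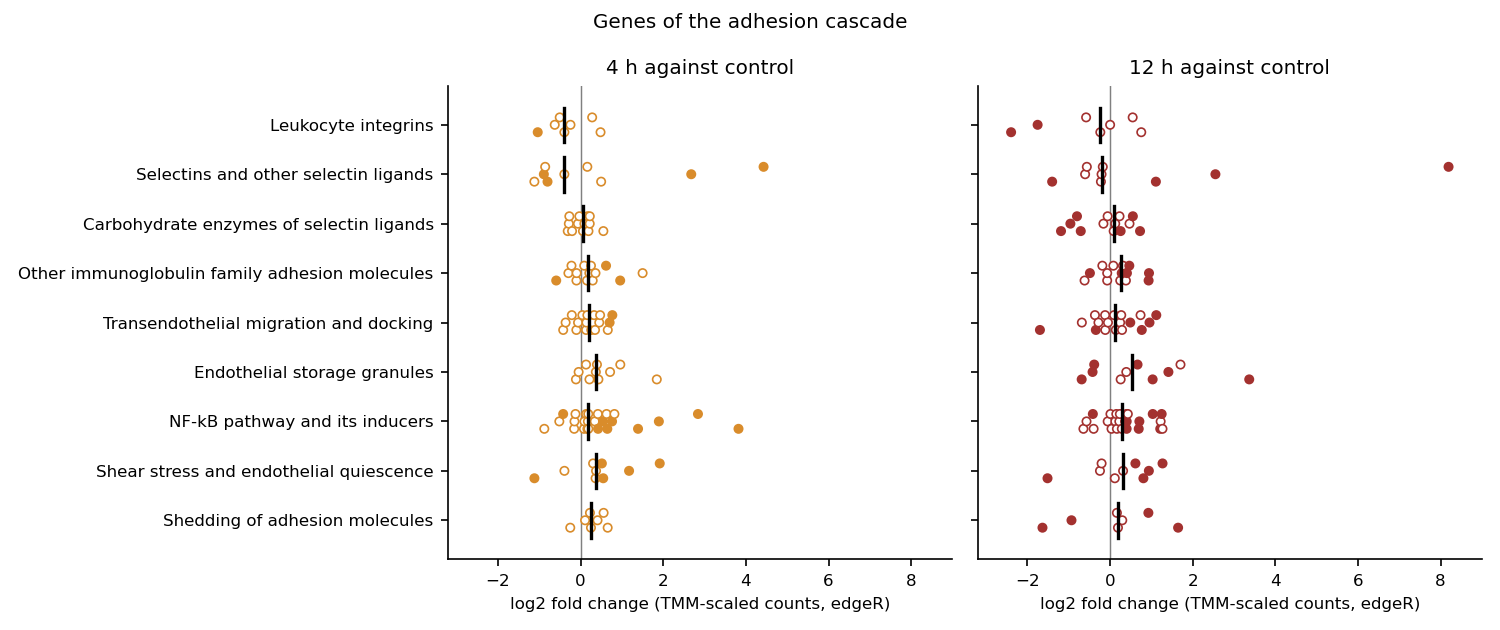
edgeR log2 fold change of each tested gene in the 9 lists of the adhesion cascade at 4 h (left) and 12 h (right) against control; points are filled where the adjusted p was under 0.05, and the black bar is the list median. Filled points stand on both sides of 0 in each list at 12 h except the leukocyte integrins, where 2 fell and 0 rose.

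The adhesion molecules were also compared with each other across the 12 cows. The highest Pearson correlation of log2 CPM between members was that of *ICAM1* and *VCAM1* (r = 0.75, and 0.69 after the group means were removed), and *SELP* with *SELPLG* gave 0.41. Among 13076 named genes the 3 most like *SELP* were *TCN2*, a vitamin B12 transport protein, *SLC43A1*, an amino acid transporter, and *LYAR*, a nucleolar protein (r = 0.95, 0.94 and 0.94). The 3 most like *SELPLG* were *PARVG*, *CD48* and *TLR4* (r = 0.95, 0.95 and 0.94), an actin adaptor of blood cells, a leukocyte surface protein and the endotoxin receptor. *ICAM1* was most like *FAM171A1*, *HNRNPH1* and *KLF6* (r = 0.90, 0.88 and 0.86). *VCAM1* was most like *TLR2*, *TOX4* and *ITGAM* (r = 0.84, 0.81 and 0.80), and *SELE* was most like *SLC33A1*, *EIF5B* and *GPR161* (r = 0.87, 0.83 and 0.80). These values describe the same 12 libraries, which share group means, and the highest of many correlations is high by selection.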

How the data were processed

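One table per cow was deposited, and the submitters' processing notes name STAR 2.5, RSEM 1.3 and the build ARS-UCD1.2; whether strand was used in counting is not given in the sources used here. The authors deposited, for each of 27270 genes, an expected count, which RSEM estimates and which need not be a whole number, with a TPM and an FPKM, which divide the counts by effective transcript length and by depth. FPKM was used only as an alternative scale for the ratios of group means.

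Expected counts were rounded, the 14481 genes that reached 10 counts in 4 or more of 12 libraries were kept, and a quasi-likelihood model of all 3 groups was fitted in edgeR 4.0.16 after TMM scaling, with Benjamini-Hochberg adjustment over all genes within each comparison and a threshold of 0.05. Every log2 fold change is from this fit unless another tool is named. TPM means and log2 CPM (prior count 2) relative to markers were compared by exact two-sided permutation tests over cows. P-values measure the spread between cows, whose origin the labels give only as mixed breed. Replicates were checked for duplicates: within every group pairs of libraries differed beyond sampling noise.

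The adhesion molecules, the gene lists and the alternatives were chosen with earlier results of these data known. Named genes were all members, from each list up to 4 genes with the smallest p at 12 h and up to 2 at 4 h, and the 3 genes most correlated with each member; of the markers only some are named. *ICAM4*, *CDH5*, *GP9* and *GP1BA* are named outside the rule, for their position or as markers. One listed gene counts in the totals of its list and is not reported here. Alternatives were DESeq2 1.42.0, RLE and upper quartile scaling, no count minimum or a minimum of 50, only the groups compared, limma 3.58.1 on log2(TPM + 1) and log2(TPM + 0.1), no mitochondrially encoded genes, an offset for a length trend (spline with 5 degrees of freedom), other marker sets, and leaving out cows. The scripts were tested on simulated data. No sequence is printed and no promoter motif was searched, as promoter and protein sequences were not used here.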

Additional observations from a re-analysis of the deposited data

Results flagged for a closer look

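*SELE* in cow 12H-7475 at 12 h was 1.46 TPM, far from the other 3 cows of its group at 0.33 to 0.47 TPM. It was the 1 such value among 15 groups of 4 cows examined, and chance gives about 1 in 20. No other value of these genes stood apart in this way, and without this cow the 12 h against 4 h log2 fold change of *SELE* was -1.54 in place of -0.77.

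The effects of PGF2α on *SELPLG* differed between the times by a direct test. The log2 fold change at 12 h against 4 h was 1.31 (SE 0.27, edgeR adjusted p = 0.00199), from 0.83 at 12 h and -0.48 at 4 h against control, and all 4 cows at 12 h were above all 4 at 4 h. The mean of the 4 leukocyte markers was 0.81 log2 units higher at 12 h than at 4 h. Of these markers 3 rose and 0 fell in that comparison by edgeR, and 1 rose without cows 4H-6455 and 12H-6314. Their part in the *SELPLG* difference was not tested.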

How the results depend on the processing

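Among 711 recomputed values, 657 kept their side of the threshold or, for values with no call, moved by less than the spread between cows, 25 moved further, 17 lost a call, 3 gained one and 9 fitted fold changes changed sign. The number of adhesion molecules called at 4 h against control was 1, and 0 with only the compared groups in the fit or without cows 4H-6455 and 12H-6314 (0 to 1 when a single cow was left out). At 12 h against control it was 2, and 1 with limma on either TPM scale (1 to 3 with a cow left out), and at 12 h against 4 h it was 1 (1 to 2). None of those 9 had passed the test: *SELE* at 12 h was -0.12 on log2(TPM + 1), -0.31 on log2(TPM + 0.1) and -0.73 to 0.55 with a cow left out, *ICAM1* at 12 h was -0.10 and -0.11 on those scales, and *VCAM1* at 12 h against 4 h was 0.12 with the length offset and -0.18 to 0.11 with a cow left out. Ratios and marker differences without a call crossed their null value too. With a cow left out, TPM ratios at 12 h against control were 0.497 to 1.16 for *SELE*, 0.805 to 1.07 for *ICAM1* (1.09 on FPKM) and 0.933 to 1.23 for *VCAM1*. Relative to markers *ICAM1* was -0.01 to 0.35 at 4 h and -0.34 to 0.02 at 12 h, *VCAM1* -0.11 to 0.44, -0.26 to 0.28 and, at 12 h against 4 h, -0.31 to 0.06, and *SELPLG* -0.20 to 0.03 at 4 h. Against *PECAM1* and *CDH5* alone, *ICAM1* and *VCAM1* changed sign in all 3 comparisons (-0.37 for both at 4 h, 0.06 and 0.22 at 12 h, 0.42 and 0.59 at 12 h against 4 h), and *SELE* was -0.01 at 4 h.

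Over all genes, the 12 h calls split into 3417 higher and 3665 lower on TMM-scaled counts, and into 1509 and 5631 on log2(TPM + 1). At 12 h against 4 h the split was 3252 and 3512, against 1304 and 5194 on that scale. At 4 h 2062 genes were called, and 1267 without control cow C-7514, 1373 without control cow C-7367 and 1300 without 4 h cow 4H-5341; the cause was not tested. The 4 h split was 1253 higher and 809 lower, against 1108 and 1207 with the length offset and 1114 and 1084 with upper quartile scaling. No paired analysis was possible because the groups share no cow or replicate number. The count minimum of 50 left no *SELE* value. *SELE* counts of 10 to 79 per library limit what can be resolved for this gene, and with 4 cows a group the exact tests cannot give a p under 0.0286.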
